A study of Mus musculus with 2 samples.

Results

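The p53 pathway genes examined here are 9 genes around the tumour suppressor p53: the gene of p53 itself (Trp53), the genes of its inhibitors Mdm2, Mdm4 and Ppm1d, and the p53-induced genes Ccng1, Sesn2, Gadd45a, Trp53inp1 and Cdkn1a. They were chosen by name, and each was looked up among all gene symbols that the deposited peak list gives for the 8730 peaks of a Sox4 pull-down library. They were set against 20949 protein-coding mouse genes on chromosomes 1 to 19 and X. The cells were C57BL/6 progenitor B cells from embryonic fetal liver, immortalized by p190 Bcr-Abl, the leukaemia oncogene. They also carried retroviral BirA, SE-Cre and BAP-Sox4, with a sort after each transduction. Chromatin was captured through the tag on streptavidin beads, and the values come from 1 such library. The study also has 1 input chromatin library of the same cells, which was not analysed here. The Sox4 was therefore introduced by retrovirus and tagged, no library without tagged Sox4 was analysed here, and the labels do not give the state of the Trp53 locus in these cells.

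p53 is a transcription factor that is kept low in unstressed cells and accumulates after DNA damage or oncogene activity. Mdm2 is a ubiquitin ligase that marks p53 for destruction, Mdm4 is its relative that blocks p53 on DNA, and the phosphatase Ppm1d (also called Wip1) removes activating phosphates from the pathway. p53 induces the genes of its own inhibitors along with genes that arrest or repair the cell, so the pathway runs in feedback loops. In progenitor B cells the pathway is known for guarding the stages in which immunoglobulin genes are cut and cells divide rapidly, and transformation by Abl oncogenes selects against it. Sox4 is an HMG-box factor needed for early B-cell development.

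Promoter sequences were taken from RefSeq (build GRCm38.p6) as the 250 bases before each annotated start, and 8 of the 9 members matched by symbol, with 10 starts in all. Trp53inp1 was not matched. Shown are 3 starts picked by the peak values described next, namely Trp53 (most tags), Gadd45a (highest fold) and Sesn2 (lowest fold). The starts of the members without a peak over the start, Ccng1 and Cdkn1a, are also shown. Those of Mdm4, which had the fewest tags, are not. Capitals mark matches to the SOX-type motif ACAAAG on either strand (CTTTGT when it lies on the opposite strand) or to the p53 half-site, the short palindromic motif of which p53 binds a pair. ACAATG was also searched on both strands and was absent from all 10 windows. No marked match overlaps another.
Trp53 (chr11:69580109-69580358, plus strand): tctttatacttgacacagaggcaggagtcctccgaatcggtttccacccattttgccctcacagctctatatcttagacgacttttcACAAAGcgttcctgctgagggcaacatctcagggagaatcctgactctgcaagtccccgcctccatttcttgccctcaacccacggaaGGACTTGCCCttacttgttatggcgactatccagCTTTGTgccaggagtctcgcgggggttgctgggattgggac
Gadd45a (chr6:67037408-67037657, minus strand): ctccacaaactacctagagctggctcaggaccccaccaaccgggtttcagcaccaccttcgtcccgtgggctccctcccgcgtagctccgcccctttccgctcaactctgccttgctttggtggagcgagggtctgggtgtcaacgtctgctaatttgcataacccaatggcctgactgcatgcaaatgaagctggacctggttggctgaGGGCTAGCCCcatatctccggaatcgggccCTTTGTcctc
Sesn2 (chr4:132510457-132510706, minus strand): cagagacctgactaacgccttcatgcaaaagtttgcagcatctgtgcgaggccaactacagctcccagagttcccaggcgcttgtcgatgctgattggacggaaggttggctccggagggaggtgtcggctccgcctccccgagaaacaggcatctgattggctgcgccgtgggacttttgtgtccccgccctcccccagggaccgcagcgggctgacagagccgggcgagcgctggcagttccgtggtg
Ccng1 (chr11:40755287-40755536, minus strand): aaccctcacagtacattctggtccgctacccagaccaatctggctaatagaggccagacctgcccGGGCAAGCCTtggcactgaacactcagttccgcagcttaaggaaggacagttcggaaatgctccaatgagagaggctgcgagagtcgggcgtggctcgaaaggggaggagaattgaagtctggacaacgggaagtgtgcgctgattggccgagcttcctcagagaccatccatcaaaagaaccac
Cdkn1a, upstream start (chr17:29090729-29090978, plus strand): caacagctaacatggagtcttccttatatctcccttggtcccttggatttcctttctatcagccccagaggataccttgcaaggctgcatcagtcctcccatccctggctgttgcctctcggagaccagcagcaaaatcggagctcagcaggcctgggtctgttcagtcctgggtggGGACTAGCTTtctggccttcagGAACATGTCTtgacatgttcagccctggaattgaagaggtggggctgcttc
Cdkn1a, downstream start (chr17:29093519-29093768, plus strand): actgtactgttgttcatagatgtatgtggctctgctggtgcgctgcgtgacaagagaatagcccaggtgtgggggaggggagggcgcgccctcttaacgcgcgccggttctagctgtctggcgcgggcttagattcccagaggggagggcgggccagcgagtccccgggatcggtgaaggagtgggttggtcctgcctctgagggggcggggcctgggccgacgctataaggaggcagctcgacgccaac

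The Trp53 window held ACAAAG at 163 bases before the start and its reverse complement at 41 bases, with a p53 half-site between them at 75 bases. In the Gadd45a window the reverse complement lay 10 bases before the start, and a p53 half-site lay at 40 bases. The upstream Cdkn1a start had p53 half-sites at 73 and 51 bases, and the Ccng1 start had 1 at 185 bases. Only exact matches were counted and pairs were not sought, so the Cdkn1a matches need not be a pair that p53 binds. The Sesn2 window and the downstream Cdkn1a window held none of the motifs, and neither did the Mdm4 windows, which are not shown. By gene, 2 of the 8 members matched had ACAAAG or ACAATG, as against 28.2% of the 27025 genes in the promoter table and 8 of 39 further pathway genes found in it (20.5%). Counted by promoter, either motif was less frequent in protein-coding genes with a peak over a start (17.7%) than in those without (24.1%). The promoters of these sets also differed in base composition, with a median GC content of 62.4% against 52.8%. Its part in the motif shares was not tested. The windows end at the start, so the stretch of a peak downstream of it was not searched. A p53 half-site was present in 6 of the 8 members (Trp53, Mdm2, Ppm1d, Ccng1, Gadd45a and Cdkn1a), as against 8.20% of all genes in the table and 6 of the 39 further pathway genes (15.4%). The promoter table also holds genes outside the protein-coding set, so its shares over all genes are not those of a like set. These counts are descriptions with no test. A match of letters is not a measured site, and the letters lie on GRCm38.p6 while the peaks lie on mm9.

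Each of the 9 members was listed for at least 1 peak, meaning a peak inside the gene or no farther than 25 kb from either end. Of all protein-coding genes, 48.9% were listed for a peak. For 7 members a peak covered the annotated transcription start site (TSS): Trp53, Mdm2, Mdm4, Ppm1d, Gadd45a, Trp53inp1 and Sesn2 (77.8%, exact 95% interval 40.0 to 97.2%). The share over all protein-coding genes was 28.4%. The interval treats genes as independent draws, which genes chosen by name are not, so it is no test against that share. Ccng1 and Cdkn1a had no peak within 5 kb of a TSS and were listed only for peaks at neighbouring genes. With 5 kb allowed, the member count stayed at 7 of 9 and the share of all genes was 32.8%. Counting a peak at any distance, but only for the gene that the file names as its closest, gave the same 7 members, against 30.7% of all genes. A peak of fold 5 or more covered the start of 4 members (Mdm2, Mdm4, Gadd45a and Trp53inp1), against 10.1% of all genes, and a peak scoring 100 or more that of 5, against 17.5%. Gene expression was not analysed here, and its part in these counts was not tested.

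**Figure D1:**
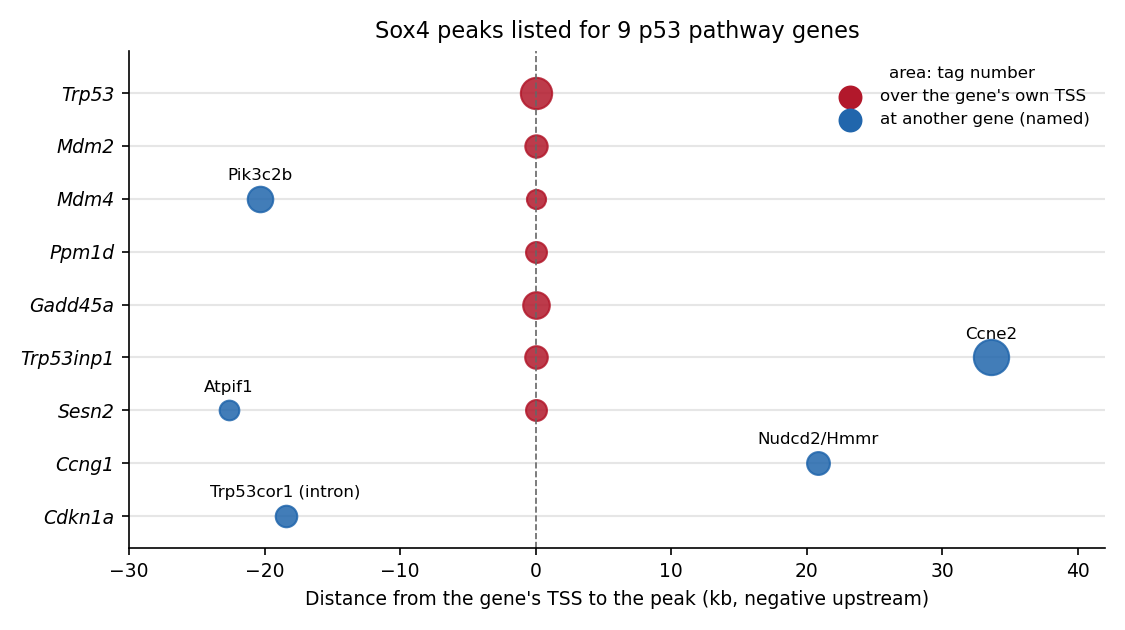
Peaks listed for each of the 9 genes by their distance from the gene's TSS in kb (negative upstream, 0 where the peak covers the TSS), with circle area in proportion to the tag number. Red circles are the 7 peaks over a gene's own start, and blue circles are the 5 peaks that lie at another gene, which is named.

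In all, 12 peaks were listed for the members, 7 over their own starts and 5 elsewhere. Each peak has a tag number (reads in the peak, not normalized), a fold over the background the peak caller expected, and a score read as minus 10 log10 of its p-value, all as deposited by the authors. Tags are counted over the whole width of a peak, so wide peaks hold more. The 7 peaks over member starts had a median of 96 tags, a median fold of 5.45 and a median score of 138. Those of all 5545 peaks over a start were 80 tags, 4.5 and 121. The members' folds ran from 2.79 to 15.1, from under the lower quartile of all peaks over starts (3.81) to above the upper one (5.52).

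Trp53 had the peak with the most tags of the 7, in a wide interval with a fold below the median. The peak lay on chromosome 11 from 69393354 to 69395348 (mm9), covered the starts of both Trp53 transcripts listed (NM_001127233 and NM_011640) and was in the promoter class of the deposited annotation. It held 188 tags (exact Poisson 95% interval 162 to 217) and scored 268 at a fold of 4.03. Its tag number exceeded that of 94.9% of all peaks and its score that of 87.1%, but its fold exceeded that of only 34.5%. At 1994 bp it was wider than 96.4% of the peaks over a start, and its density of 94.3 tags per kb exceeded that of 83.2% of them. Wrap53, the gene of a telomerase Cajal body protein that runs divergently from Trp53, was listed for the same peak, which lay 529 bp upstream of its start. It lay 19616 bp upstream of the start of Efnb3 and, past the end of Atp1b2, 24114 bp from that gene's start.

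All 3 inhibitor genes had a peak over the start, with tag numbers whose intervals overlapped one another. Mdm2 had 96 tags (77.8 to 117) at a fold of 5.69, with a score of 130 (chromosome 10, 117147085 to 117148214). Mdm4 had 70 tags (54.6 to 88.4) at a fold of 5.75, with a score of 138 (chromosome 1, 134921402 to 134922344). Ppm1d had 84 tags (67.0 to 104) at a fold of 3.49, with a score of 88.3 (chromosome 11, 85124135 to 85125229). By fold, Mdm2 and Mdm4 stood close together, above 78.9% and 79.5% of all peaks, and Ppm1d stood above 14.7%. The difference in tags among the 3 genes was not tested, and the deposited fold has no error. No other gene was listed for the Ppm1d peak. The Mdm2 peak was also listed for Cpm and Slc35e3, past the ends of both, and the Mdm4 peak for Pik3c2b, 20245 bp upstream of it.

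Of the 5 p53-induced genes, 3 had a peak over the start, with the highest and the lowest fold of the 7 among them. Gadd45a encodes a small stress protein that acts in growth arrest and DNA repair. Its peak on chromosome 6 from 66986942 to 66987858 held 136 tags (114 to 161) and scored 508 at a fold of 15.1. This was the highest fold among the 12 member peaks, rank 175 of 8730, and the density of 148 tags per kb exceeded that of 97.6% of all peaks. At 916 bp it was the narrowest of the 7 own-start peaks, but close to the median width of all peaks (911 bp). Trp53 had more tags but Gadd45a the more concentrated signal. The same peak began 350 bp inside the noncoding transcript E230016M11Rik, and it was listed for Gng12, 15588 bp past its end.

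Trp53inp1 encodes a stress-induced nuclear protein that promotes p53 activity. Its start, shared by transcripts NM_001199105 and NM_021897, lay under a peak of 98 tags (79.6 to 119) at a fold of 5.45, scoring 166 (chromosome 4, 11083031 to 11083981). Sesn2 encodes sestrin 2, which restrains mTORC1 signalling under stress. Its start had 84 tags (67.0 to 104) at a fold of 2.79, scoring 81.2 (chromosome 4, 132065774 to 132066881). That fold ranked 8613 of 8730 and exceeded that of 1.26% of all peaks, although the tag number exceeded that of 62.7% of them. Sesn2 and Ppm1d thus had equal tag numbers at different folds.

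**Figure D2:**
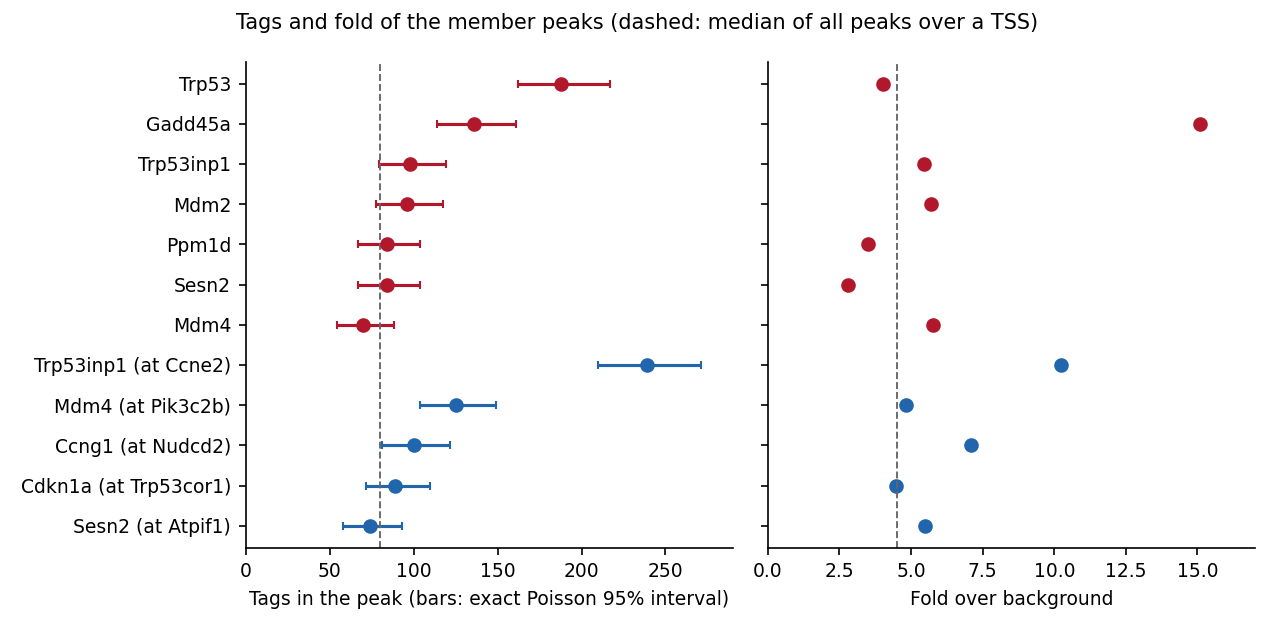
Tags with exact Poisson 95% intervals (left, in reads per peak) and fold over background (right) of the 12 member peaks, in red over the gene's own start and in blue at another gene, with dashed lines at the medians of all peaks over a TSS (80 tags and a fold of 4.5). Trp53 and Gadd45a lie above the other own-start peaks in tags, while Gadd45a alone of them exceeds a fold of 10.

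Trp53 and Gadd45a had the most tags of the 7. The interval of Trp53 lay above those of the other 6 own-start peaks, and that of Gadd45a lay above those of Mdm4, Ppm1d and Sesn2 and overlapped those of Mdm2 and Trp53inp1. These intervals cover counting error only, and leave out duplicate reads and the spread between cultures. Fold and tags ordered the members differently. Mdm4 had the fewest tags of the 7 but the second highest fold.

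**Figure D3:**
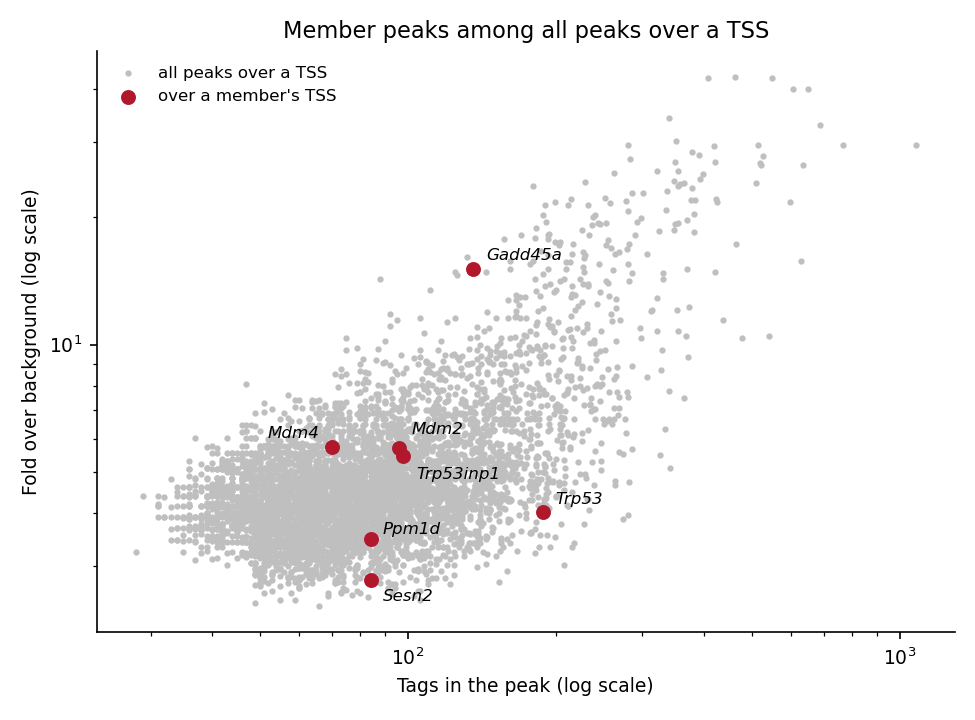
Fold over background against tags in the peak, both on log axes, for all 5545 peaks over a TSS (grey) and the 7 over member starts (red). Gadd45a lies near the upper edge of the folds for its tag number, and Trp53 and Sesn2 lie near the lower edge.

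Where the start could be placed, the summits lay just upstream of it. The list gives the distance to a TSS only from peaks that do not cover it, so a start can be placed when a further peak names the same transcript, which held for Mdm4, Sesn2 and Trp53inp1. Their summits lay 60, 38 and 44 bp upstream of the start, with an uncertainty of 1 bp from the counting convention. The peaks reached 420, 511 and 556 bp upstream and 522, 596 and 394 bp downstream, so each covered the proximal promoter and the beginning of the gene. Over the 3193 genes and peaks that could be placed in this way, the median summit lay 38 bp upstream (quartiles 130 bp upstream and 78 bp downstream), and 970 summits (30.4%) fell within 100 bp upstream. The summits of the 3 members thus lay between these quartiles. None of the 7 own-start peaks covered the start of another gene in the deposited annotation. Of all 5545 peaks over a start, 753 (13.6%) did, and 7 peaks are too few to tell the members from that share.

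Cdkn1a, which encodes the cell cycle inhibitor p21, had no peak over either of its starts. It was listed for 1 peak, on chromosome 17 from 29208468 to 29209472, which lay 18459 bp upstream of the start of NM_001111099 and 21245 bp upstream of that of NM_007669. The peak held 89 tags (71.5 to 110) and scored 125, at a fold of 4.46, close to the median fold of peaks over a start. It was classed as intronic, 6434 bp inside the noncoding transcript NR_036469. The list calls this transcript Gm16197, and its accession matches Trp53cor1 in the RefSeq table, the gene of lincRNA-p21, a p53-induced RNA. The signal nearest to Cdkn1a thus lay inside another p53-induced gene. Ccng1, which encodes cyclin G1, a partner of phosphatase 2A that acts on Mdm2, was listed for 1 peak 14136 bp past its end (chromosome 11, 40546884 to 40547918). That peak had 100 tags (81.4 to 122) at a fold of 7.08, scored 247 and covered the starts of Nudcd2 and Hmmr. Hmmr encodes a hyaluronan receptor that also acts on the mitotic spindle. Among all protein-coding genes, 16.1% were like Cdkn1a and Ccng1 listed only for peaks more than 5 kb from a TSS.

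A further 3 members were listed for a second peak at a neighbour. The peak 20331 bp upstream of Mdm4 covered the start of Pik3c2b, a lipid kinase gene, with 125 tags (104 to 149) and a fold of 4.83. The peak 22641 bp upstream of Sesn2 covered the start of Atpif1, which encodes an inhibitor of the mitochondrial ATP synthase, with 74 tags (58.1 to 92.9) and a fold of 5.49. The peak 15702 bp past the end of Trp53inp1 covered the start of Ccne2, the gene of cyclin E2, with 239 tags (210 to 271) at a fold of 10.2, scoring 537. That peak had more tags than any over a member start. Other genes listed for member peaks were Dnajc8 (for both Sesn2 peaks), Mir684-2 (past its end, for the peak at the start of Trp53inp1) and Ints8 (past its end, for the Ccne2 peak), and none of their starts was covered. Of the 5 peaks away from member starts, 4 therefore covered the starts of other genes.

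The family relatives of the members showed starts with peaks where the member had none, and the reverse. Ccng2, which encodes cyclin G2, had 324 tags (290 to 361) and a fold of 18.5 over its start, whereas Ccng1 had no peak there. Cdkn1b, the gene of the p21 relative p27, had 128 tags (107 to 152) and a fold of 3.41 over its start, and Cdkn1c was not listed for any peak. Gadd45b and Gadd45g had folds of 5.39 and 5.03, below the 15.1 of Gadd45a at similar tag numbers of 123 and 125 in wider peaks. Trp53inp2 had a fold of 8.65 with 158 tags (134 to 185), against 5.45 and 98 at Trp53inp1. Sesn1 had a fold of 5.05, against 2.79 at Sesn2, and Sesn3 was not listed. The phosphatase genes Ppm1a, Ppm1b and Ppm1g had folds of 5.55, 4.62 and 4.14, against 3.49 at Ppm1d. Of the p53 family, Trp63 was not listed, and Trp73 was listed only for a peak 15434 bp upstream that is closest to Tprgl. In all, 9 of 13 relatives had a peak over a start (69.2%, exact 95% interval 38.6 to 90.9%), against 28.4% of all protein-coding genes. As for the members, that interval is no test against all genes.

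The wider pathway was surveyed with 47 further genes, of which Ccng2, Sesn1 and Sesn3 were also counted among the relatives. A peak covered the start of 28 of them (59.6%, exact 95% interval 44.3 to 73.6%), against 28.4% of all protein-coding genes. Here too the interval is no test, because the genes were chosen by name. Of the rest, 2 had a peak within 5 kb only, 5 were listed for more distant peaks and 12 were not listed. The 28 peaks had a median of 85.5 tags and a median fold of 4.23, slightly under the 4.5 of all peaks over a start. For 9 of the 28 genes (32.1%) the peak also covered the start of another gene. Of all peaks over a start, 13.6% covered the starts of several genes. The pathway share counts genes, whereas the share of 13.6% counts peaks, and a shared peak belongs to every gene whose start it covers. Counted by gene, the share over all genes would be higher than 13.6%. It was not counted, so these shares do not tell whether pathway genes share peaks more often.

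**Figure D4:**
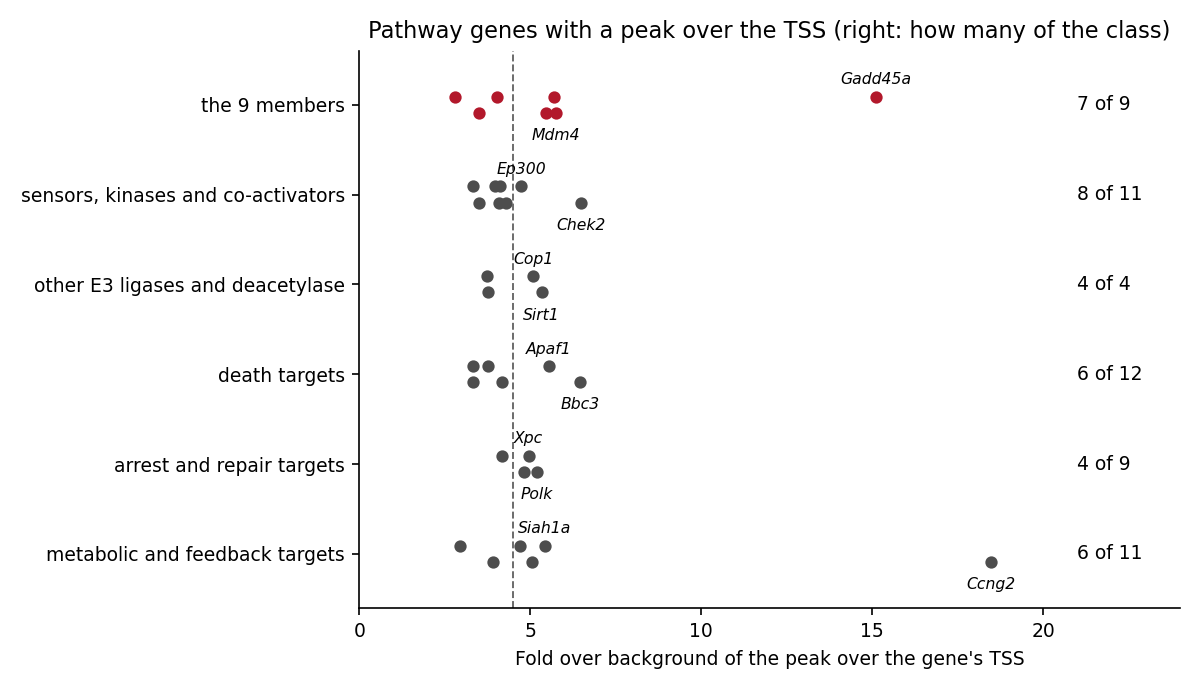
Fold over background of the peaks over the TSS of the members (red) and of 47 further pathway genes by role (grey), with the number of genes that had such a peak on the right and a dashed line at the median fold of all peaks over a TSS (4.5). Only Gadd45a among the members and Ccng2 among the other genes exceed a fold of 10.

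By role, damage sensors, kinases and co-activators of p53 had a peak over the start in 8 of 11 cases. The highest scores were those of the acetyltransferase gene Ep300 (166 tags, fold 4.74), the checkpoint kinase gene Chek2 (97 tags, fold 6.47, in a peak shared with the start of Hscb) and Cdkn2a (99 tags, fold 4.12), whose product Arf holds Mdm2 in check. Chek1 and Trp53bp1, the gene of a protein that marks DNA breaks, were not listed. All 4 genes of other enzymes that modify p53 had one, led in score by the deacetylase gene Sirt1 (121 tags, fold 5.33), then the ligase genes Rchy1 (92 tags, fold 3.73) and Huwe1 (53 tags, fold 3.75). The Rchy1 peak also covered the start of Thap6.

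The other genes were grouped by name as targets of p53, and whether p53 induces them, Ccng2 included, was not measured here. Death genes had a peak over the start in 6 of 12 cases. The highest score was at Bbc3, the gene of the BCL2-family protein PUMA (185 tags, fold 6.46). Apaf1, the gene of the apoptosome scaffold, followed (108 tags, fold 5.55, shared with Ikbip). Zmat3 came next with a score of only 73.2 (46 tags, fold 4.16, shared with 4930429B21Rik), and Fas, Tnfrsf10b, Perp, Ei24 and Phlda3 were not listed. Arrest and repair genes had one in 4 of 9 cases. Their highest scores were at the repair genes Xpc (61 tags, fold 4.95), Polk (94 tags, fold 5.2) and Ddb2 (79 tags, fold 4.81), each in a peak that also covered another start, and Rrm2b, Plk2 and Rprm were not listed. Metabolic and feedback genes had one in 6 of 11 cases, led by Ccng2, then the ligase gene Siah1a (141 tags, fold 5.42, shared with Gm10638) and Ddit4, the gene of an mTORC1 inhibitor (159 tags, fold 2.93). Sesn3 and Tsc2 were not listed. The difference between roles was not tested, because genes of 1 library are not replicates.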

How the data were processed

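Sox4 pull-down and input libraries were 1 each, and values of the pull-down alone were used. The submitters' processing notes name build mm9, the aligner Bowtie (0.12.8) and the peak caller MACS (1.4.2), and do not say whether the input served as control. The deposited tag number is a raw count of reads per peak, the deposited fold is a ratio to the expected background, and the deposited score, lowest 50.03, was read as minus 10 log10 of p. The depth of the libraries is unknown.

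Transcripts, symbols and distances were split in parallel with Python 3.11.15 and pandas 2.3.3. Of the transcripts, 14989 matched the RefSeq gene table (GRCm38.p6) by accession, 195 by symbol, 32 by an older symbol and 12 not at all; none of that table's coordinates were used. Shares have exact Clopper-Pearson and tags exact Poisson 95% intervals (SciPy 1.17.1). No test between conditions was possible with 1 library. Alternatives were a score of 100 or more, a fold of 5 or more, the closest gene only, and other TSS windows. The code that reads distances was checked on simulated peaks made with the same distance convention. That check could not test the convention of the deposited distances. Members, gene lists and rules were chosen with earlier results of these data known. Named were the members, genes sharing their peaks, their relatives, and per role the 3 highest-scoring genes and those not listed. One further gene of the pathway list is not reported here and was left out of its counts. Cop1 and Tigar were matched through older symbols.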

Additional observations from a re-analysis of the deposited data

How the results depend on the processing

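With peaks of fold 5 or more only, 4 of the 9 members had a peak over a TSS and 4 within 5 kb of one, against 7 for both counts with all peaks, and 9 of the 47 other pathway genes had one over a TSS, against 28. Of all protein-coding genes, 10.1% had a peak of that fold over a TSS. Trp53, Ppm1d and Sesn2 were the members lost. With a score of 100 or more, 5 members and 19 other genes had a peak over a TSS (17.5% of all genes). Counting only the closest gene left the members with a peak over a TSS at 7 and the other genes at 20. The share of all genes was not counted by that rule, nor for a fold of 5 or more within 5 kb. Those counts therefore have no share of all genes to be read against. The median of the 7 own-start peaks exceeded 64.8% of all peaks by score, 75.3% by fold, 72.1% by tag number and 72.6% by tags per kb. Among peaks over a start alone, the same medians exceeded 57.7%, 74.1%, 64.7% and 68.0%. No paired analysis was possible because each group has 1 library and no value of the input was used. Without replicates or known depth, none of the differences between peaks has an error beyond counting.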

Other observations

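The members differed in how crowded with peaks their surroundings were. Gadd45a had no other peak within 100 kb of its own, the nearest lying 140 kb away (closest gene Gng12) and 228 kb away (Serbp1), while 22.7% of the 5545 peaks over a start were as isolated. Mdm2 had 4 other peaks within 100 kb, Trp53 and Sesn2 had 3 each, Trp53inp1 had 2, and Mdm4 and Ppm1d had 1 each, against a median of 2 over all starts with a peak. The next peak beyond Ppm1d on the side of the DNA repair gene Brip1 lay 889 kb away.

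The base composition of member promoters also varied. In the 250 bases before the start, Mdm2 had 29 CpG dinucleotides, Ppm1d 22, Sesn2 18, Gadd45a and Ccng1 11 each and Trp53 9, and the starts of Mdm4 had 5 and 4. The median was 19 in promoters of protein-coding genes with a peak over a start and 6 in those without. The upstream Cdkn1a start had 2 and the downstream one 19, and neither had a peak over it. The start of Mdm4 that lies under its peak was not matched between the builds.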
